A study of Mus musculus with 4 samples.

Results

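The genes described here are the 5 named as cholinergic neuron genes, of which 4 make, load or break down acetylcholine or take up its choline and 1 encodes a filament protein of motor neurons: *Chat*, *Slc5a7*, *Slc18a3*, *Ache* and *Prph*. They were taken as a named list from the 32285 genes measured by single-nucleus RNA sequencing of the mouse hindbrain, and followed across the 14 annotated cell types and the 134 annotated neuronal clusters. The data held 39461 nuclei that passed the quality control of the authors, which left out 4842 other barcodes, and 12539 of the nuclei were neurons.

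The tissue was the posterior hindbrain block with the area postrema and the nucleus of the solitary tract, from C57BL/6 mice of 12 to 20 weeks and both sexes. The AgRP-Gq;POMC-Gi mice were AgRP-IRES-Cre+/-;hM3DGqfl/-;POMC-Dre+/-;hM4DGifl/-, so that an activating designer receptor was placed in AgRP neurons and an inhibiting one in POMC neurons. The control mice, which the sample labels call WT, were offspring of the same cross, with both receptor alleles and without Cre or Dre. All mice, controls included, received the receptor ligand clozapine N-oxide (CNO) at 3 mg per kg by intraperitoneal injection and were left without food for 1 h. Each group had 2 libraries. The drivers are those of AgRP and POMC neurons, and whether any of the cholinergic nuclei described here carried a receptor was not tested. Tissue within a condition was pooled, with 2 mice in each group, and which mice entered which library is not stated, so the p-values below measure the spread between libraries, which may be technical.

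Each library held 9723 to 10051 kept nuclei with 48904976 to 53089402 unique molecular identifiers (UMIs, one per captured RNA molecule). The neuronal fraction was 25.4% and 27.2% for control replicates 1 and 2 and 38.0% and 36.5% for AgRP-Gq;POMC-Gi replicates 1 and 2. Neurons had a median of 8704 UMIs per nucleus against 2554 in all other nuclei. *Xist*, expressed from the inactive X chromosome of female cells, was at 16.2 CPM (UMIs of a gene per 1000000 UMIs of the class) in the neurons of AgRP-Gq;POMC-Gi replicate 2 and between 319 and 541 CPM in the other libraries. The libraries also differed in choroid plexus, with 2 and 436 such nuclei in control replicates 1 and 2 and 6 and 329 in AgRP-Gq;POMC-Gi replicates 1 and 2. Barcodes shared by 2 libraries covered 336 nuclei, or 0.851% of those kept, 1 of them in the cluster where the members were highest. Values in all 4 libraries are given below in the order control replicates 1 and 2, then AgRP-Gq;POMC-Gi replicates 1 and 2, and means are over these 4 libraries with the SD (n = 4).

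Acetylcholine is made from choline and acetyl-CoA by choline acetyltransferase, encoded by *Chat*. *Slc5a7* encodes the high-affinity transporter that returns choline to the nerve ending, and *Slc18a3* the vesicular transporter that loads acetylcholine into synaptic vesicles. *Ache* encodes acetylcholinesterase, which splits the released transmitter, and *Prph* encodes peripherin, an intermediate filament protein of neurons that send axons into the periphery. In the caudal hindbrain the best known cholinergic cells are motor neurons, among them the branchial and visceral motor neurons of the nucleus ambiguus and the vagal dorsal motor nucleus, and the somatic motor neurons of the hypoglossal nucleus.

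In the GRCm38 annotation, *Chat* (ENSMUSG00000021919) lies on chromosome 14 from 32408203 to 32465989 on the minus strand. *Slc18a3* (ENSMUSG00000100241) is a gene of 1 exon at chromosome 14, 32462438 to 32464850, on the same strand. It lies inside *Chat* and overlaps 0 of its exons, so it is intronic to it, and its start is 1139 bases from that of *Chat*. The non-coding gene *Gm2990* lies over the start of *Chat* on the plus strand, from 32465042 to 32483548, and does not overlap *Slc18a3*. Reads may be divided between *Chat* and *Slc18a3*, and between *Chat* and *Gm2990*. How this was done, and whether strand was used, is not given in the sources used here. *Slc5a7* (ENSMUSG00000023945) lies on chromosome 17 from 54273590 to 54299034 on the minus strand, *Ache* (ENSMUSG00000023328) on chromosome 5 from 137287519 to 137294466 on the plus strand, and *Prph* (ENSMUSG00000023484) on chromosome 15 from 99055174 to 99058978 on the plus strand.

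The start regions of the 4 members that were highest in a single neuronal cluster are shown because these genes shared that cluster while their sequences around the start differed. Each is a window of 300 bases, from 250 before to 50 after the annotated start, of RefSeq on GRCm38.p6, read on the strand of the gene. Capitals mark matches to 5 promoter motifs. The TATA box (TATAAA) places the start of transcription in many genes with a sharp start. The box named for its letters CCAAT is bound by the factor NF-Y. The GC box (GGGCGG, or CCGCCC where it is on the opposite strand) is bound by SP factors. The E box searched for (CACGTG) is bound by basic helix-loop-helix factors. The half-site of the cyclic AMP response element, or CRE (CGTCA), is bound by CREB and its relatives. All motifs were searched on both strands. The windows are chr14:32465860-32466159 for *Chat*, chr14:32464801-32465100 for *Slc18a3*, chr17:54298985-54299284 for *Slc5a7*, all on the minus strand, and chr15:99054924-99055223 for *Prph*, on the plus strand.
Chat: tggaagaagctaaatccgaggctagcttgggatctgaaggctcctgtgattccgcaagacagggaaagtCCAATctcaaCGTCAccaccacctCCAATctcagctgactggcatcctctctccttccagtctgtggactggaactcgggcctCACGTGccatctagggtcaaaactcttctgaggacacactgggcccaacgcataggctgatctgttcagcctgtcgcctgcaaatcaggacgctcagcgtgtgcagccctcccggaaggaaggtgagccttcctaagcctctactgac
Slc18a3: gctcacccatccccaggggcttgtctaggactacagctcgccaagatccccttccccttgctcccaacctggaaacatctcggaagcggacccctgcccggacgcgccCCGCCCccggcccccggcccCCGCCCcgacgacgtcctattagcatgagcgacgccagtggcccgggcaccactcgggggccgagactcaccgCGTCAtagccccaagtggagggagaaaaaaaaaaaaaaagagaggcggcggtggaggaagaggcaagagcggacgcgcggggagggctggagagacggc
Slc5a7: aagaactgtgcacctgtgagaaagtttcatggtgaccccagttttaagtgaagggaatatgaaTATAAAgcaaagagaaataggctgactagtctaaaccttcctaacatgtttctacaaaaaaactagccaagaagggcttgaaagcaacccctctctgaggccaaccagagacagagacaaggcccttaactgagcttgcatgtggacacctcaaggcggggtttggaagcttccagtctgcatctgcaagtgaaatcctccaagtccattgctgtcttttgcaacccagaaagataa
Prph: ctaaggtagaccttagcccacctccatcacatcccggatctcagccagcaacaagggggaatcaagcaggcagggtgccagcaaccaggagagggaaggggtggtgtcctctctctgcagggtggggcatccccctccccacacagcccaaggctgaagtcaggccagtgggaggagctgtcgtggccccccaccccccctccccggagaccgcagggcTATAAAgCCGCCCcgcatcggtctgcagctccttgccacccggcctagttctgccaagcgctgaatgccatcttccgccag

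No motif searched for was present in all 4 printed windows. The *Chat* window held 2 CCAAT boxes, at positions -181 and -157 from the start, with a CRE half-site at -171 and an E box at -98. The *Slc18a3* window held 2 GC boxes on the opposite strand and a CRE half-site at -49, and the *Prph* window a TATA box at -31 with a GC box on the opposite strand at -24. The *Slc5a7* window held only a TATA box, at -187, and was the poorest in G and C of these windows (44.7%, with 1 CpG). The *Slc18a3* window was 67.0% G and C with 27 CpG dinucleotides, *Prph* 64.7% with 10 and *Chat* 55.7% with 10, against medians of 52.7% and 7 over 32851 such windows. Of all windows, 13.6% held a TATA box, 37.4% a CCAAT box, 35.7% a GC box, 7.15% an E box and 20.8% a CRE half-site, and the homeodomain site TAATTA, found in 5.29% of windows, was in 0 of the 5 members' windows.

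Across cell types, *Chat* was close to confined to neurons, and *Ache* was widespread in neurons and stood out among glia in OPC. *Slc5a7* had UMIs in some nuclei of every type. *Chat* stood at 4.80, 5.18, 5.93 and 4.99 CPM in the neurons of the 4 libraries, with a UMI in 3.28% of neurons (95% exact Clopper-Pearson interval, 2.97 to 3.60%). Outside neurons 0.234% of nuclei had a *Chat* UMI. Neurons held 90.9% of all *Chat* UMIs, and 125151498 of the 202643768 UMIs of all genes. In fibroblasts 0 of 819 nuclei and in Tmem119.Immune cells, which are microglia by their marker, 0 of 969 had one, which allows shares of up to 0.366% and 0.310%. These intervals and limits cover counting error only.

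*Slc5a7* stood at 6.40, 8.13, 11.9 and 11.7 CPM in neurons and was detected in 4.87% of them. In oligodendrocyte precursor cells (OPC) it was no lower, at 12.4, 10.4, 17.9 and 14.9 CPM with a UMI in 3.95% of 784 nuclei (2.70 to 5.57%). The small group annotated as Oligodendrocytes/OPC, 123 nuclei, had the highest mean of any type, 46.5 ± 56.0 CPM, from 17 UMIs of which 9 came from control replicate 1. Mature oligodendrocytes were lower, at 1.39, 2.51, 3.05 and 4.53 CPM, so that every OPC library lay above every oligodendrocyte library. Tanycyte-like cells, 202 nuclei, were at 14.3 ± 7.21 CPM, from 9 UMIs in 8 nuclei (3.96%), and their libraries, at 9.71 to 25.0 CPM, overlapped those of OPC and of neurons. Mural and endothelial cells followed at 7.58 ± 4.76 and 7.23 ± 3.83 CPM, with a UMI in 1.12% and 1.14% of nuclei.

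When every nucleus was thinned to 800 UMIs, so that depth no longer differed, 0.646% of neurons, 0.765% of OPC and 4.07% of Oligodendrocytes/OPC nuclei kept an *Slc5a7* UMI, against 0.262% of oligodendrocytes. The OPC interval (0.281 to 1.66%) held the neuronal share and overlapped the oligodendrocyte interval (0.190 to 0.351%). *Chat* was left in 0.351% of the thinned neurons, 0.0535% of oligodendrocytes and 0 of 784 OPC, which allows up to 0.383%. Without thinning, 1 OPC nucleus had *Chat* and 31 had *Slc5a7*.

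*Slc18a3* was the sparsest member, with 188 UMIs in all kept nuclei, and neurons did not stand out for it. Its levels in neurons were 0.298, 0.620, 0.955 and 0.850 CPM, and in oligodendrocytes 0.729, 0.921, 1.69 and 1.94 CPM. At 800 UMIs per nucleus 0.0399% of neurons and 0.119% of oligodendrocytes kept a UMI. Over neurons as a whole the *Slc18a3* share was therefore below that of a cell type not known to load acetylcholine, and is not read as expression. The part of free RNA in it was not tested.

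*Ache* was at 42.9, 43.7, 37.9 and 44.2 CPM in neurons, with a UMI in 32.4% of them. OPC followed at 24.8, 31.3, 39.9 and 46.1 CPM (12.2% of nuclei), then F13a1.Immune cells with a mean of 33.4 ± 23.6 CPM and mural cells of the vessel wall at 18.7, 28.0, 20.3 and 29.9 CPM. Oligodendrocytes were near the low end of the order, at 6.23, 6.95, 8.85 and 10.2 CPM. The shares of nuclei with an *Ache* UMI in astrocytes (3.40%) and oligodendrocytes (2.06%) were like those in fibroblasts (2.56%), endothelial cells (2.53%) and choroid plexus (2.85%). Those of astrocytes and oligodendrocytes are not read as expression. These shares are not at equal depth. Tmem119.Immune and mural cells had shares of 3.82% and 3.85%, at medians of 1871 and 1520.5 UMIs. Tmem119.Immune cells, at 17.5 to 23.0 CPM, lay above fibroblasts, at 6.77 to 16.7 CPM, and overlapped endothelial cells, at 0 to 23.3 CPM. Whether the counts in Tmem119.Immune and mural cells are expression was not tested. *Prph* differed little between types, with 4.10, 3.86, 4.69 and 5.33 CPM in neurons and 2.52, 3.18, 3.16 and 5.50 CPM in oligodendrocytes. Neurons held 64.7% of its UMIs, close to their part of the UMIs of all genes (125151498 of 202643768). By mean *Prph* level they had rank 8 among the 13 types with at least 80 nuclei. For none of the 5 genes did all libraries of 1 cell type lie above all libraries of the next type in the order of means, among the 13 types with at least 80 nuclei.

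**Figure D1:**
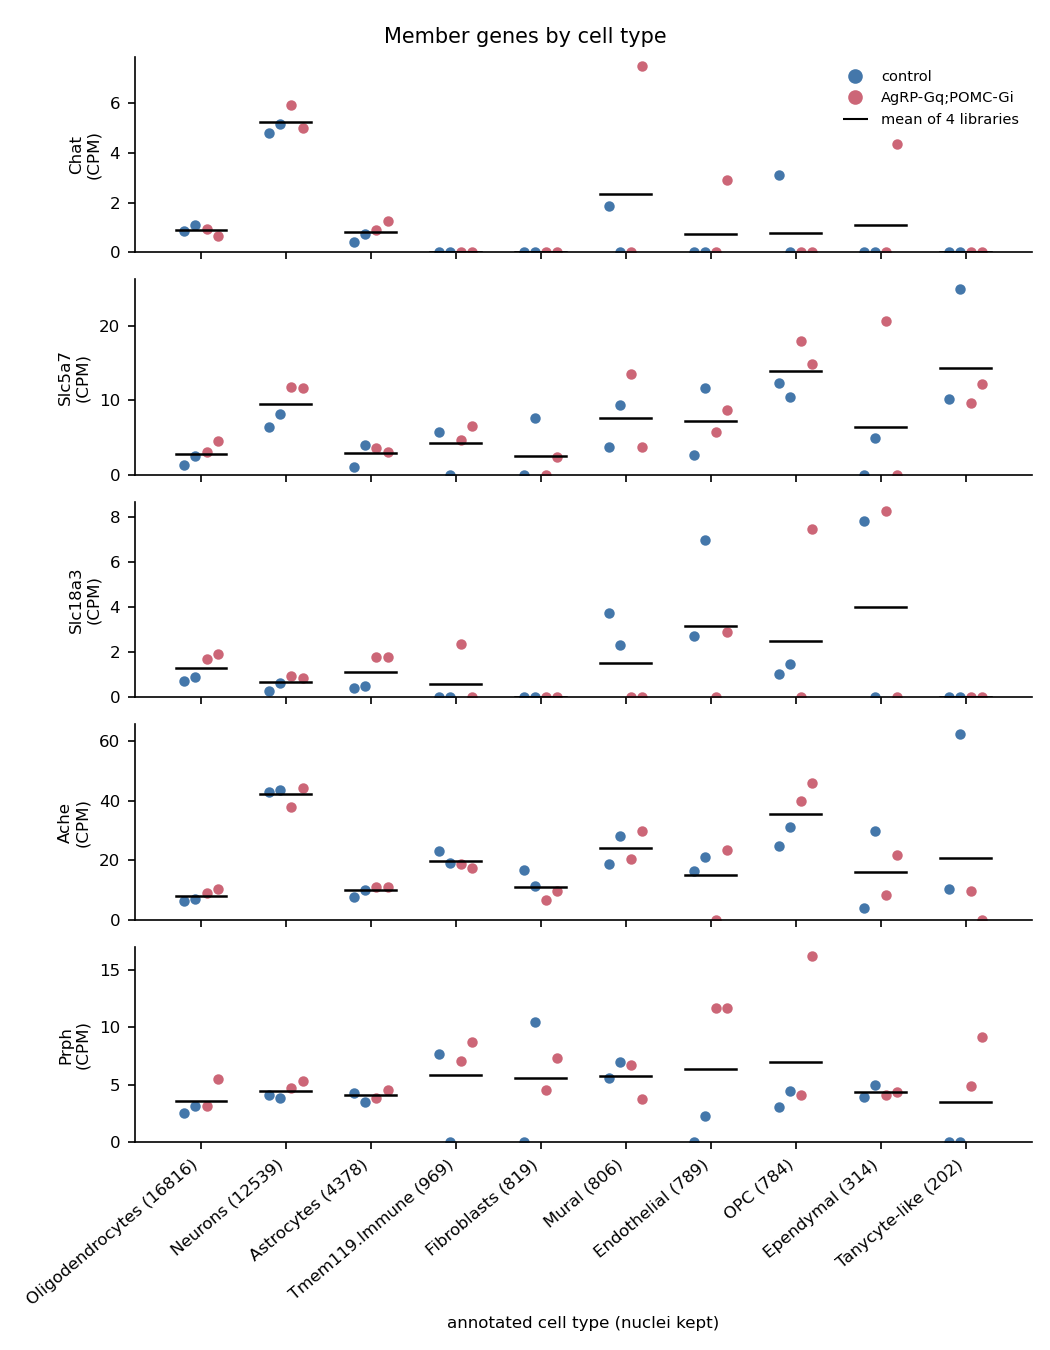
Level of the 5 genes (CPM, one panel per gene, each with its own axis) in the 10 annotated cell types with enough nuclei in each library, one point per library and a line at the mean of the 4 libraries. By mean, *Chat* is highest in neurons (4.80 to 5.93 CPM), though mural cells of AgRP-Gq;POMC-Gi replicate 2 are at 7.48 CPM, from 2 UMIs. *Slc5a7* in OPC (10.4 to 17.9 CPM) overlaps its level in neurons (6.40 to 11.9 CPM). Points at 0 in the small types are libraries without a UMI.

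Within neurons the members were concentrated in few clusters. A cluster was called cholinergic here when *Chat* and *Slc5a7* each had a UMI in at least 10% of its nuclei, with libraries pooled. This held for 8 of the 134 neuronal clusters with 597 nuclei, 4.76% of the neurons: 78 Ebf2/Adarb2 (118 nuclei), 99 (100), 109 Gcg/Reln (89), 116 Prph/Slc5a7 (82), 123 Reln/Pou4f1 (75), 150 Nr5a2/Zfp804b (54), 173 Mecom/Oprk1 (40) and 175 Lama1/Sntg2 (39). The gene names beside a number are leading genes by which the authors named the cluster. Since clusters were built from the same expression values, differences between clusters are described without a test. *Chat* alone reached the threshold in 3 clusters (375 nuclei), *Slc5a7* alone in 9 clusters (963 nuclei) and neither in 114.

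The 8 cholinergic clusters held 50.9% of the *Chat* and 50.1% of the *Slc5a7* UMIs of all neurons, 58.8% of those of *Prph* and 31.5% of those of *Slc18a3*, but only 6.18% of those of *Ache*. Just inside the threshold, cluster 109 had *Chat* in 11.2% and *Slc5a7* in 18.0% of nuclei. Just outside it, cluster 137 had *Chat* in 16.1% and *Slc5a7* in 9.68%, and cluster 118 had *Chat* in 8.64% and *Slc5a7* in 19.8%. No gap thus separated the weaker cholinergic clusters from the rest, and 14 clusters qualified at a threshold of 5% and 3 (116, 123 and 175) at 20%.

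**Figure D2:**
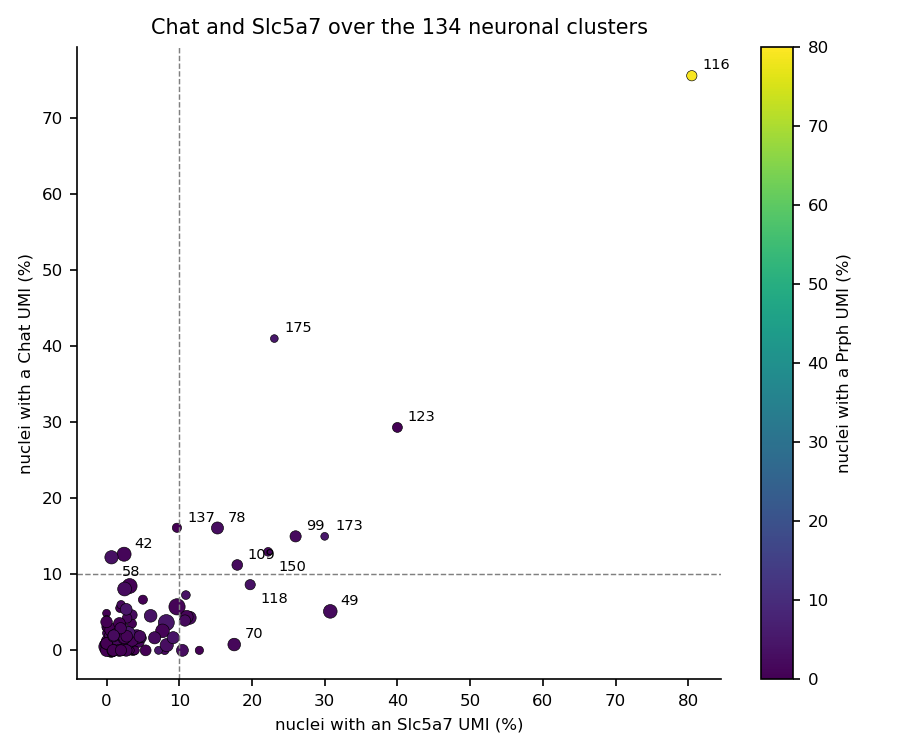
Share of nuclei with a *Chat* UMI against the share with an *Slc5a7* UMI (both in percent) for the 134 neuronal clusters, one point per cluster with its size growing with the number of nuclei and its colour giving the share with a *Prph* UMI; dashed lines mark the 10% threshold. Cluster 116 stands alone at 75.6% and 80.5%, and it is the one point with a high *Prph* share (79.3%).

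Cluster 116 was set apart from all other neurons by 3 of the 5 genes. Its *Chat* level was 204, 178, 127 and 146 CPM (164 ± 33.9), and the next cluster, 123, had 63.4, 64.0, 49.8 and 40.5 CPM. *Slc5a7* stood at 329, 229.9, 294 and 276 CPM (282 ± 41.2) in cluster 116 and at 158, 42.6, 69.8 and 122 CPM in cluster 123. *Prph* stood at 235, 253, 233 and 289.6 CPM (253 ± 26.1), and the next highest cluster, 167 Tph2/Slc6a4, a cluster with serotonin genes, was at 12.5 ± 15.5 CPM. For each of these 3 genes the lowest library of cluster 116 was above the highest library of the next cluster, which held for no other pair of neighbours among the 5 highest clusters.

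*Slc18a3* was also highest in cluster 116, at 7.83, 23.5, 15.1 and 13.5 CPM (15.0 ± 6.46), with 19 UMIs in 15 of 82 nuclei (18.3%, exact interval 10.6 to 28.4%). It was the only cluster to reach 10% for this gene. Its level overlapped that of the next clusters across libraries, and these rested on 1 to 3 UMIs each. *Ache* was not higher there, at 47.0, 56.3, 19.4 and 33.7 CPM (39.1 ± 16.1) against a median of 42.6 CPM over all clusters.

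With 0.654% of the neurons and 0.998% of their UMIs, cluster 116 held 28.6% of the neuronal *Chat* UMIs, 28.5% of *Slc5a7*, 21.3% of *Slc18a3* and 56.2% of *Prph*. Its nuclei were deep, with a median of 14832.5 UMIs. After thinning to 2000 UMIs, which left out 4 of its nuclei (and 72 control and 94 AgRP-Gq;POMC-Gi neurons in all), *Chat* was still found in 29.5%, *Slc5a7* in 38.5% and *Prph* in 44.9% of the 78 nuclei left. Only clusters 116 and 175 then stayed at 10% for both *Chat* and *Slc5a7*, and the other 6 fell below the threshold at that depth.

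Single nuclei of cluster 116 carried the genes together. All of *Chat*, *Slc5a7* and *Prph* had a UMI in 48 of its 82 nuclei, 22 had 2 of them, 5 had 1 and 7 had 0. The 48 complete nuclei had a median of 18511.5 UMIs and the 7 without any had 1739, so an absent gene went with low depth. Of the 15 nuclei with *Slc18a3*, 14 also had *Chat*, 13 *Slc5a7* and 14 *Prph*. Among all 12457 other neurons, 5 nuclei had *Chat*, *Slc5a7* and *Prph* together.

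**Figure D3:**
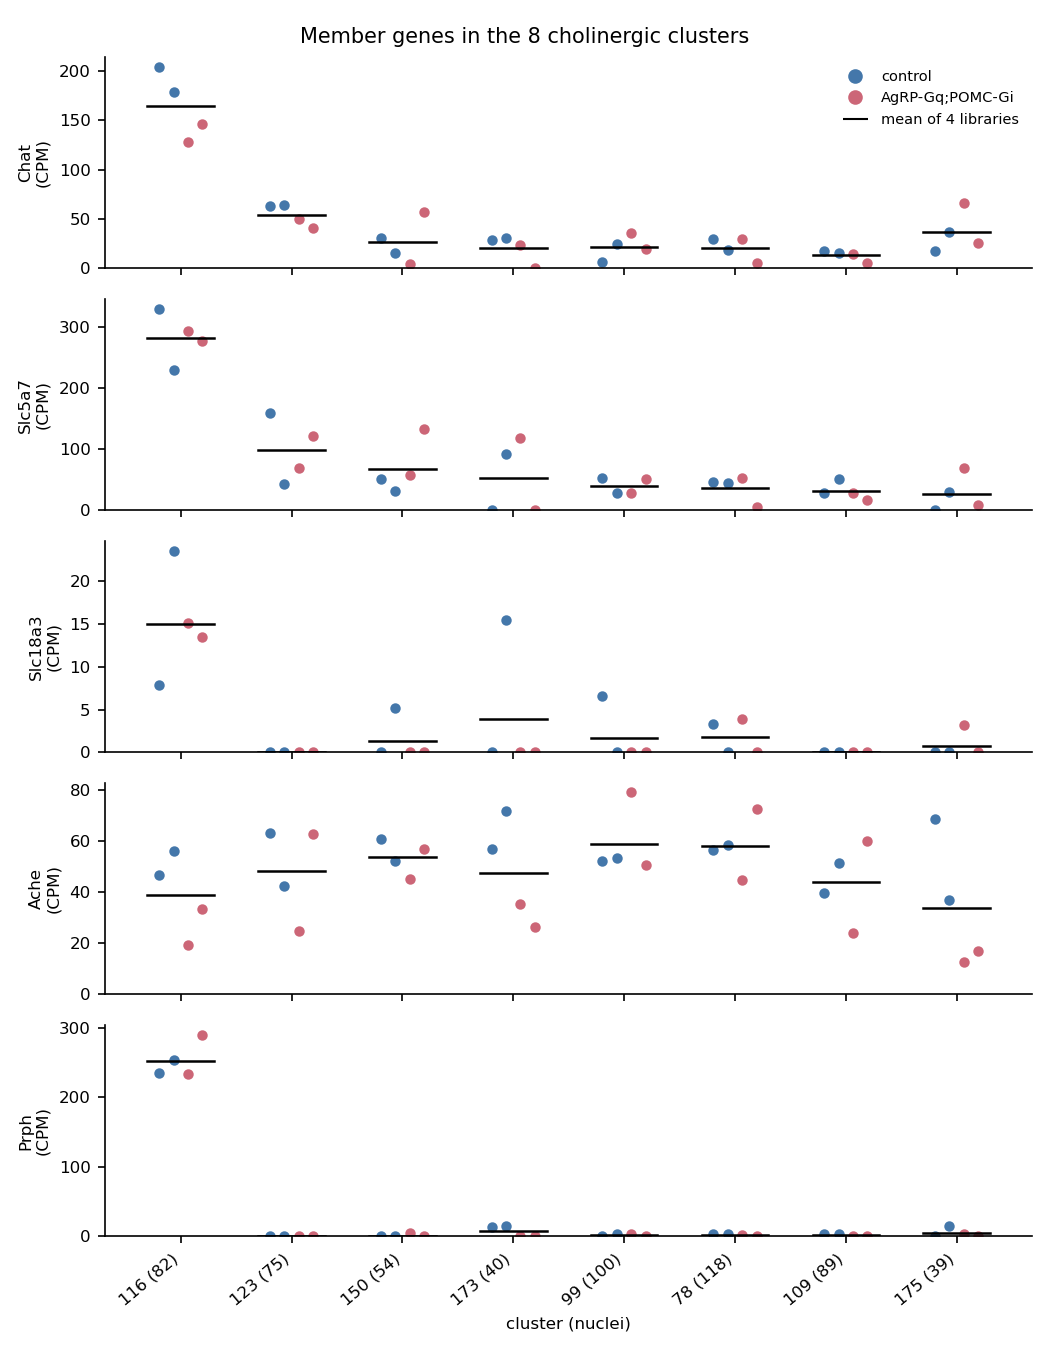
Level of the 5 genes (CPM, own axis in each panel) in the 8 cholinergic clusters, ordered by *Slc5a7*, one point per library and a line at the mean of the 4 libraries, with the number of nuclei in brackets. *Chat*, *Slc5a7* and *Prph* in cluster 116 lie above every other cluster in all 4 libraries, whereas *Ache* overlaps across all 8.

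The other 7 cholinergic clusters had lower and more uneven levels. Cluster 123 had *Chat* in 29.3% and *Slc5a7* in 40.0% of its 75 nuclei, with 0 UMIs of *Slc18a3* and of *Prph*, which allows a share of up to 4.00% for each. Cluster 175 had *Chat* in 41.0% of 39 nuclei, at 17.2, 37.0, 66.6 and 25.6 CPM, and *Slc5a7* in 23.1%, with 0 UMIs of *Slc5a7* in control replicate 1. In cluster 173 *Slc5a7* was at 92.5 CPM in control replicate 2 and 118 CPM in AgRP-Gq;POMC-Gi replicate 1 and had 0 UMIs in the other 2 libraries, which held 6 and 5 of its nuclei. Mean *Chat* levels in clusters 150, 99, 78, 173 and 109 ran from 26.9 down to 13.6 CPM, and the libraries of neighbouring clusters in this order overlapped.

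In these 7 clusters pooled, *Slc5a7* was detected more often in nuclei with *Chat*. Of 95 nuclei with a *Chat* UMI, 46 also had *Slc5a7* (48.4%, exact interval 38.0 to 58.9%), against 18.3% of the 420 nuclei without *Chat*. Outside the cholinergic clusters, 20 of 254 nuclei with *Chat* had *Slc5a7* (7.87%, 4.88 to 11.9%), against 3.44% of those without. The nuclei with *Chat* were deeper in both cases, with medians of 10607 against 9281.5 UMIs in the 7 clusters and 10762 UMIs outside them. The clusters also differed in their shares of both genes, and the part of depth and of pooling clusters in these values was not tested. *Slc18a3* was sparse in the 7 clusters, with 9 UMIs in 515 nuclei, and 506 of these nuclei had none. Outside the cholinergic clusters 58 neurons had a UMI of it and 11884 had none, a smaller share.

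Other clusters reached 10% for only 1 of the genes. Cluster 58 had *Chat* at 13.0, 22.2, 17.1 and 22.8 CPM and 1 *Slc5a7* UMI in 147 nuclei. Cluster 49 Ccbe1/Tspan18 had *Slc5a7* at 15.7, 103, 78.6 and 69.4 CPM, in 30.8% of 156 nuclei, and *Chat* at 6.82 ± 7.35 CPM, and it was among the clusters that qualified at 5%. Both carried inhibitory transmitter genes, *Gad2*, which makes GABA, at 252 and 291 CPM, and *Slc6a5*, the neuronal glycine transporter, at 114 and 108 CPM.

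*Ache* followed none of this. At least 10% of nuclei had an *Ache* UMI in 132 of the 134 clusters, with cluster means from 15.1 CPM in cluster 156 Ankfn1/Pou4f1 upward and quartiles of 34.6 and 49.7 CPM. The highest means, 161 and 136 CPM in clusters 177 and 179, rested on 3 and 9 UMIs, and the next was 87.6 ± 35.8 CPM in cluster 166 Otof/Hpse2. *Ache* encodes an enzyme that cells receiving acetylcholine also make, and in these neurons its presence did not mark those with *Chat*: of neurons other than cluster 116, 37.2% of those with *Chat* and 32.3% of those without had an *Ache* UMI.

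Over the 133 clusters with at least 20 nuclei, likeness of pattern was measured as Pearson's r of log2(CPM + 1) between genes, among 15470 genes. The gene most like *Chat* was *Slc5a7* (r = 0.60, and 0.55 without cluster 116) and the gene most like *Slc5a7* was *Chat*. *Chat* and *Prph* had r = 0.24, which fell to 0.10 without cluster 116. For *Ache* the most alike genes were *Acaca* (r = 0.55), *Uchl1* (0.55) and *Nsg1* (0.53), and its r with *Chat* was 0.08. The highest r for *Prph* was 0.38, with the mitochondrial gene *mt-Nd4l*. *Slc18a3* had too few UMIs for this measure, and the clusters share libraries, so these values are descriptions.

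Some genes known from motor neurons were higher in cluster 116 than in the other cholinergic clusters. The sum of the 15 motor neuron transcription factors was above some of these clusters and not above others. That list includes *Rbfox3*, a marker of neurons in general, and *Esrrg*, which was high elsewhere as well. All 15 factors had a UMI in cluster 116, against 3 to 8 of them in each of the other 7. Some rested on few of its 82 nuclei, with *Isl2* and *Lhx3* in 1 each, *Phox2a* in 2 and *Mnx1* in 4. Depth was not equalized for this count, with medians of 14832.5 UMIs in cluster 116, 7368 in cluster 123 and 16430 in cluster 175. The sum of the 15 factors in cluster 116 was 662 to 1011 CPM in controls and 512 to 656 CPM in AgRP-Gq;POMC-Gi mice. In the same order it was 754 to 1257 and 1081 to 1097 CPM in cluster 99. In cluster 123 it was 533 to 634 and 455 to 558 CPM, and in neurons outside the cholinergic clusters 800 to 806 and 722 to 806 CPM. Among the 15 factors, *Tbx20*, of branchial and visceral motor neurons, was at 73.6 ± 84.9 CPM in cluster 116. *Isl1*, needed for motor neuron identity, was at 21.1 ± 12.9 CPM and *Mnx1*, of somatic motor neurons, at 5.6 CPM, and both had 0 UMIs in the other 7 cholinergic clusters. *Onecut2*, at 79.7 CPM, and *Esrrg*, at 332 CPM, were as high elsewhere, since clusters 150 and 173 had 74.9 and 77.4 CPM of *Onecut2* and clusters 99 and 175 had 813 and 809 CPM of *Esrrg*.

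Of the neuronal filament genes, *Nefl* was at 289 CPM and *Nefm* at 376 CPM in cluster 116, above the 44.3 to 90.9 CPM and 45.6 to 127 CPM of the other 7 cholinergic clusters. *Acly*, which makes the acetyl-CoA used for acetylcholine, was at 162 CPM there and *Slc44a5*, of a choline transporter-like family, at 207 CPM, against 35.4 and 69.5 CPM in neurons outside cholinergic clusters. *Slc10a4*, a protein of cholinergic and monoamine vesicles, was at 17.4 CPM in cluster 116 and at most 1.0 CPM in the other 7. *Prima1*, the membrane anchor of acetylcholinesterase, was at 46.8, 54.0 and 69.8 CPM in clusters 116, 123 and 175, and at 6.7 CPM in neurons outside cholinergic clusters.

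Transmitter genes divided the cholinergic clusters. Cluster 116 was low in *Slc17a6*, the vesicular glutamate transporter (6.8 CPM), in *Gad1* (1.7 CPM) and in *Slc6a5* (12.3 CPM). Clusters 123, 99, 150, 175, 109 and 173 all carried *Slc17a6*, at 209.5, 152, 132, 127, 118 and 91.1 CPM. Cluster 78 was inhibitory, with *Gad1* at 113 CPM, *Gad2* at 291 CPM and *Slc6a5* at 93.7 CPM. *Pax2*, a factor of dorsal interneurons, was at 113 to 169.6 CPM in clusters 109, 78 and 150, and *Tacr1*, the substance P receptor, at 73.9 to 88.5 CPM in clusters 109, 99 and 123. *Zic1* was at 88.1 CPM in cluster 175. *Lhx8* and *Gbx2*, of cholinergic interneurons elsewhere, were at 0 in all 8.

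**Figure D4:**
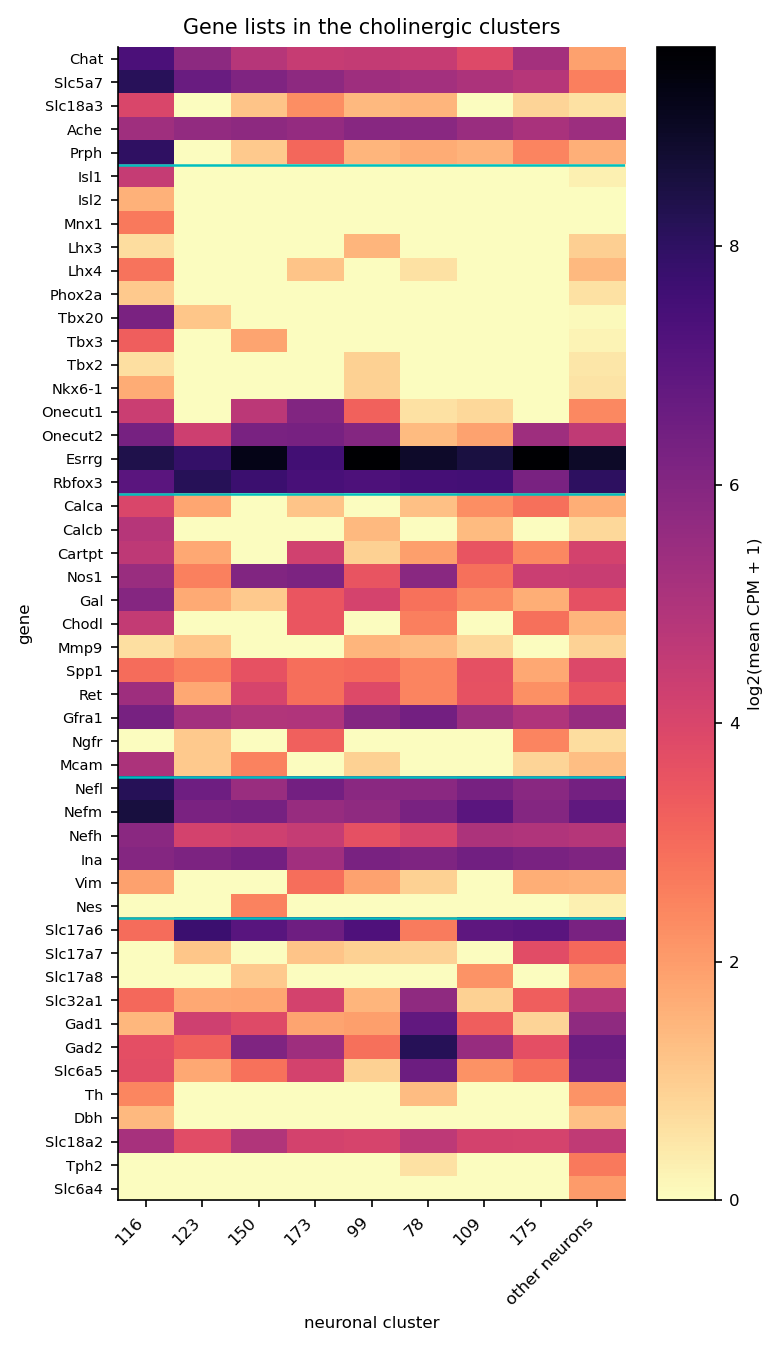
Mean level over the 4 libraries, as log2(CPM + 1), of the 5 members and of 4 gene lists (motor neuron transcription factors, motor neuron effectors and peptides, intermediate filament genes, other transmitters, separated by lines) in the 8 cholinergic clusters and in all other neurons. Cluster 116 is dark for *Prph*, *Tbx20*, *Nefl* and *Nefm* and pale for *Slc17a6*; the other 7 clusters are dark for *Slc17a6* or, in cluster 78, *Gad2*.

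Turning to the comparison of groups, AgRP-Gq;POMC-Gi mice against controls, no member passed an adjusted p under 0.05 in any of the main fits. Both groups had received CNO, and no library was without it. An effect of CNO through the receptors therefore cannot be told apart from one of the genotype alone. UMIs were summed per library and tested with edgeR's quasi-likelihood test, with Benjamini-Hochberg adjustment over all genes tested, for genes detected in 5% or more of the nuclei summed. In summed counts more cells of a type and more RNA per cell cannot be told apart.

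In all neurons *Ache* was the 1 member of 5 that passed the filter. Its difference, AgRP-Gq;POMC-Gi minus control, was -0.02 on the log2 scale (SE 0.08, adjusted p = 0.964), and its libraries overlapped. Of the 12115 genes tested, 0 were called, or 0%, with 667 at an unadjusted p under 0.05 and 12 called by DESeq2. In the fit with no filter, where 1 of 27523 genes (0.00363%) was called, the differences were 0.20 for *Chat* (SE 0.17), 0.76 for *Slc5a7* (SE 0.15), 1.03 for *Slc18a3* (SE 0.40) and 0.40 for *Prph* (SE 0.16), each at an adjusted p of 0.867. *Slc5a7*, *Slc18a3* and *Prph* were higher in both AgRP-Gq;POMC-Gi libraries than in both control libraries, as were 11.2% of the 18972 genes with at least 50 UMIs. Markers of oligodendrocytes moved with the groups in neurons, where all 4 had an unadjusted p under 0.05 and a median log2 difference of -0.71, and 0 were called. In neurons outside the cholinergic clusters their summed level was 168 to 202 CPM in controls and 97.9 to 119 CPM in AgRP-Gq;POMC-Gi mice. Its part in the differences of the members was not tested.

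Summed over the 8 cholinergic clusters, *Chat* was at 44.5, 45.3, 53.1 and 48.4 CPM, *Slc5a7* at 75.9, 69.8, 104 and 97.4 CPM, and *Prph* at 28.8, 38.0, 49.1 and 70.2 CPM. *Ache* was at 52.3, 54.5, 35.5 and 51.7 CPM. The first 3 were higher in both AgRP-Gq;POMC-Gi libraries than in both controls, a pattern that 12.8% of genes with at least 50 UMIs shared, and *Ache* was lower in both, as were 22.7%. The log2 differences were 0.25 for *Chat* (SE 0.20, adjusted p = 0.889), 0.54 for *Slc5a7* (SE 0.16, adjusted p = 0.372), -0.25 for *Ache* (SE 0.20, adjusted p = 0.897) and 0.86 for *Prph* (SE 0.22, adjusted p = 0.201). Without AgRP-Gq;POMC-Gi replicates 1 and 2 in turn *Chat* was at 0.098 and 0.38 and *Ache* at -0.060 and -0.45. With clusters chosen at 20% *Chat* turned to -0.22, and *Slc5a7* was at 0.24, *Ache* at -0.78 and *Prph* at 0.21. None of these 4 members passed, and *Slc18a3* did not pass the filter. Of the 12465 genes tested, 15 (0.12%) were called, 10 higher and 5 lower. This balance moved with the processing, to 18 higher and 15 lower without TMM factors and to 7 higher and 0 lower by DESeq2.

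The *Prph* difference in this sum was the closest to a call and depended on the processing. With no filter on genes it was called, at 0.88 on the log2 scale (SE 0.22, adjusted p = 0.0216, with 0.392% of 22470 genes called). Without AgRP-Gq;POMC-Gi replicate 1, which left 1 library in that group, it was at 1.04. Over alternatives changed 1 at a time with all libraries kept, its adjusted p ran from 0.0216 (edgeR) to 1.0 (DESeq2). Alternatives in combination, where it was lower, are given further below. The makeup of the sum moved with the *Prph* level. Cluster 116, with nearly all the *Prph* of these clusters, gave 9.68%, 11.5%, 12.6% and 19.4% of the cholinergic nuclei. With cluster 116 left out, an alternative chosen after seeing the data, *Prph* had 15 UMIs and did not pass the filter, and with no filter it was at -1.71 (SE 0.93, adjusted p = 0.947). *Slc5a7* differed by 0.17 (SE 0.23) and *Chat* by 0.15 (SE 0.33). The summed level of the 4 oligodendrocyte markers in the cholinergic clusters also moved with the groups, at 166 to 178 CPM in controls and 88.2 to 133 CPM after AgRP-Gq;POMC-Gi, and its part in the results was not tested. None of these 4 markers was called there, and 2 had an unadjusted p under 0.05.

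In cluster 116 alone the log2 difference of *Prph* was 0.23 (SE 0.34, adjusted p = 0.955) and that of *Slc5a7* 0.19 (SE 0.34, adjusted p = 0.957). Whether these differed from the values of the sum was not tested. *Chat* had -0.34 (SE 0.35, adjusted p = 0.921), and its 2 levels in AgRP-Gq;POMC-Gi mice (127 and 146 CPM) were under both controls (204 and 178 CPM), as were those of 19.3% of 4503 genes with at least 50 UMIs in this cluster. *Ache* differed by -0.85 (SE 0.52, adjusted p = 0.762), from 42 UMIs, and *Slc18a3* by -0.13 (SE 0.80, adjusted p = 0.983), from 19 UMIs. The direction turned for *Slc5a7* (-0.059) and *Slc18a3* (0.98) without control replicate 2, and for *Slc18a3* (0.031) without AgRP-Gq;POMC-Gi replicate 2. Of the 12886 genes tested in cluster 116, 36 (0.279%) were called, none of them a member, and leaving out control replicate 2 raised the count to 145 while leaving out AgRP-Gq;POMC-Gi replicate 1 raised it to 59. The cluster held 9, 17, 24 and 32 nuclei in the 4 libraries. Its summed oligodendrocyte markers overlapped between the groups, at 125 to 145 CPM in controls against 73.5 to 184 CPM.

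In cluster 116 *Tbx20* was the only gene of the lists described here that was called. It stood at 23.5, 23.5, 47.5 and 199.8 CPM and rose by 2.47 on the log2 scale (SE 0.56, adjusted p = 0.0290), with most of the rise in AgRP-Gq;POMC-Gi replicate 2. Without that library the difference was 1.23 (SE 0.72, adjusted p = 0.991) and the call was lost. It was also lost without TMM factors (2.37, adjusted p = 0.117) and with filterByExpr (2.41, adjusted p = 0.375). DESeq2 put the difference at 2.46 (SE 0.89) and gave no adjusted p, so *Tbx20* was not called there. Of the 15 motor neuron transcription factors 9 were tested and 1 was called, while the median of the 9 was -0.36, against 0.07 over all genes tested in the cluster. Of the 12 motor neuron effectors and peptides 10 were tested and 0 called (median -0.27), with *Cartpt*, *Gal* and *Gfra1* at an unadjusted p under 0.05. Of the 12 other acetylcholine pathway genes 11 were tested and 0 called (median -0.15), with *Slc44a5* under 0.05 unadjusted. Of the 6 intermediate filament genes 5 were tested and 0 called (median -0.34), with *Nefh* under 0.05 unadjusted. Of the 12 genes of other transmitters 5 were tested and 0 called (median -0.24), and of the 7 genes of non-motor cholinergic neurons 1 was tested and 0 called. In the summed cholinergic clusters 0 genes of these lists were called. In all, 968 of the genes tested had an unadjusted p under 0.05, and DESeq2 called 11.

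The remaining cholinergic clusters gave no call for a member either. In clusters 78, 99, 109, 123, 150 and 173 the differences of *Chat* ran from -1.004 to 0.71 on the log2 scale and those of *Slc5a7* from -0.75 to 0.99, with SEs of 0.46 to 1.27. Over all genes tested, 0.0398% were called in cluster 78, 0% in clusters 99 and 150, 0.0244% in cluster 109, 0.0088% in cluster 123 and 0.0488% in cluster 173. These counts, 0 to 6 genes, were 0 to 40 when single libraries were left out, the highest in cluster 109 without AgRP-Gq;POMC-Gi replicate 2. By DESeq2 0 genes were called in clusters 99 and 150. There 568 of 12109 genes (4.69%) and 365 of 12096 (3.02%) had an unadjusted p under 0.05 by edgeR. Cluster 175 had 3 nuclei in control replicate 1 and was not tested.

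**Figure D5:**
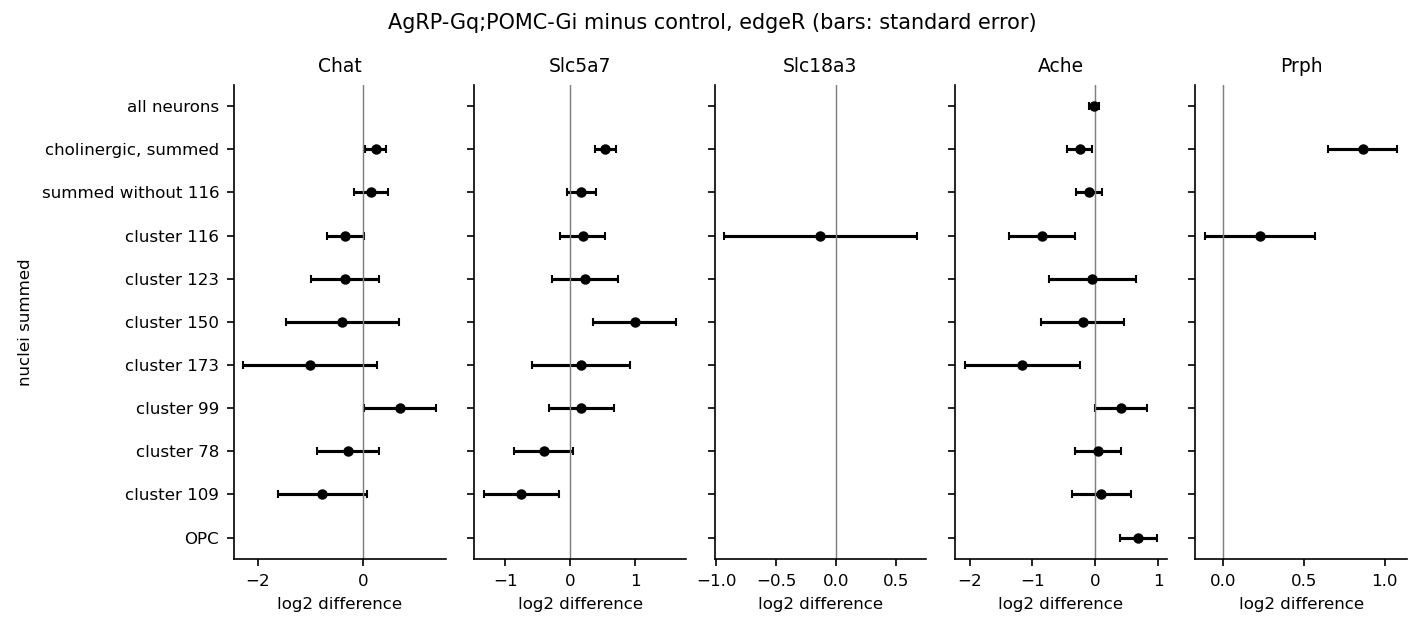
Log2 difference, AgRP-Gq;POMC-Gi minus control, of each member (one panel per gene, own axis) in all neurons, the cholinergic clusters summed with and without cluster 116, single clusters and OPC; points are edgeR estimates and bars their standard error, and combinations that did not pass the filter or had under 10 UMIs are not drawn. *Prph*, called in none of these fits, is drawn at 0.86 in the summed clusters and at 0.23 in cluster 116.

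In the 9 cell types outside neurons that were fitted, *Ache* in OPC was the only case of a member that passed the 5% filter. It was at 24.8 and 31.3 CPM in the controls, then 39.9 and 46.1 CPM, a log2 difference of 0.68 (SE 0.30, adjusted p = 0.722), where 4 of 9016 genes (0.0444%) were called. That count was 1 and 0 when control replicates 1 and 2 were left out, and 64 and 105 when AgRP-Gq;POMC-Gi replicates 1 and 2 were. In oligodendrocytes *Slc5a7*, *Slc18a3* and *Ache* were higher in both AgRP-Gq;POMC-Gi libraries than in both controls, as were 13.2% of 14468 genes. None of them had a UMI in 5% of oligodendrocyte nuclei. With no filter none was called there, with *Slc5a7* at 1.02 (SE 0.32, adjusted p = 0.0948), *Slc18a3* at 1.18 (SE 0.46, adjusted p = 0.311) and *Ache* at 0.58 (SE 0.21, adjusted p = 0.211).

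The share of neurons that fell in the 8 cholinergic clusters was 3.77%, 5.41%, 5.17% and 4.54% in the 4 libraries. The group means, 4.59% ± 1.16 and 4.85% ± 0.446 (SD, n = 2 each), overlapped, with p = 1.0 in a two-sided exact permutation test, whose smallest possible p with 2 against 2 libraries is 0.3333. Cluster 116 made up 0.364%, 0.621%, 0.649% and 0.880% of neurons and cluster 123 made up 0.283%, 0.439%, 0.758% and 0.770%. Cluster 78 made up 0.810%, 0.731%, 1.16% and 0.962%, and cluster 109 made up 0.931%, 0.877%, 0.379% and 0.770%. In clusters 116, 123 and 78 both AgRP-Gq;POMC-Gi libraries were above both controls and in cluster 109 both were below, each at the smallest p the design allows, and in the other 4 clusters the groups overlapped. Of all 134 neuronal clusters, 24.6% were likewise higher in both AgRP-Gq;POMC-Gi libraries and 13.4% lower.

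In simulated data for the same libraries, with 200 genes changed, all genes with a fold of 2 were recovered in the sum over all neurons (100%), 49.5% in the cholinergic clusters summed and 0.5% in cluster 116, where 40% were recovered at a fold of 4. There were 24 false calls in the sum over all neurons at either fold, 0 and 16 in the cholinergic clusters summed at folds of 2 and 4, and 0 and 2 in cluster 116. The changed genes were drawn from all genes tested, and recovery at the counts of the members was not tested. Counts were drawn for each gene independently, so shifts shared by the genes of a library were not simulated and these shares need not hold for the data.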

How the data were processed

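Nuclei were isolated from the posterior hindbrain, sorted by DRAQ5 and processed on the 10x Genomics platform as 4 libraries, 2 of control and 2 of AgRP-Gq;POMC-Gi mice. The submitters' processing notes name Cell Ranger 7.0.0, Seurat 4.3.0 and the GRCm38/mm10 build. The deposited counts are the authors' raw UMI counts per gene and barcode, with no normalization. The authors also deposited, per nucleus, the percent of counts from mitochondrial genes, a quality control result, a cell type and a preliminary cluster. Their stated filter kept nuclei with 800 or more UMIs, 500 or more genes and no more than 10% mitochondrial counts. Doublets were identified by the authors before deposit and no caller was run here. Cell types and clusters are those of the deposited annotation.

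From these counts, CPM per library (UMIs of a gene over all UMIs of the class, times 1000000) and the share of nuclei with a UMI were computed for each class, with exact Clopper-Pearson 95% intervals. The limit for a gene with 0 nuclei was set at 3 nuclei of the total. For comparisons of shares at equal depth, nuclei were thinned to 2000 UMIs (neurons) or 800 UMIs (cell types), and shallower nuclei were left out. Group comparisons used UMIs summed per library and class, genes detected in 5% or more of the nuclei summed, TMM factors and edgeR 4.0.16 (glmQLFTest, R 4.3.3), with Benjamini-Hochberg adjustment over all genes tested and an adjusted p of 0.05 as the threshold. The study's own mixed model over nuclei was not run here, and UMIs summed per library were tested instead. A cluster was fitted where every library held at least 5 of its nuclei, and a cell type where every library held at least 20. DESeq2 1.42.0, no TMM factors, other gene filters, other thresholds for cholinergic clusters, a replicate block and leaving out each library were alternatives. Shares of neurons were compared by an exact permutation test. The scripts were tested on simulated data.

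The 5 members were a given list, and the genes named beside them come from lists of acetylcholine pathway, motor neuron, filament, transmitter and cell type marker genes, with clusters named where they ranked highest for a member or lay nearest the threshold. Members and lists were chosen with earlier results of these data known. Start windows and motifs come from RefSeq on GRCm38.p6, and gene positions from GENCODE on GRCm38. Some genes of these lists are not reported here.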

Additional observations from a re-analysis of the deposited data

Results flagged for a closer look

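The levels of *Ache* lay in opposite directions in different cell types, with no overlap between the groups in 5 of the 8 types with at least 20 nuclei in each library and 20 UMIs of the gene. Its mean in AgRP-Gq;POMC-Gi mice exceeded that of controls in OPC by 15.0 CPM, in oligodendrocytes by 2.95 CPM and in astrocytes by 2.20 CPM. It was lower in fibroblasts, with a difference of -5.80 CPM, and in Tmem119.Immune cells, with a difference of -2.84 CPM. Of genes with at least 50 UMIs, 14.4% in OPC, 13.2% in oligodendrocytes and 14.6% in astrocytes were likewise higher in both AgRP-Gq;POMC-Gi libraries, and 16.8% in fibroblasts and 18.3% in Tmem119.Immune cells lower. The fibroblast levels, 16.7, 11.4, 6.77 and 9.76 CPM, rested on 22 UMIs, and those of Tmem119.Immune cells, 23.0, 19.0, 18.9 and 17.5 CPM, on 38 UMIs. *Ache* was not called in any of these types by edgeR's quasi-likelihood test, with an adjusted p of 0.722 in OPC and, with no filter on genes, of 0.211 in oligodendrocytes, 0.895 in astrocytes, 0.957 in fibroblasts and 0.956 in Tmem119.Immune cells. The *Ache* shares of oligodendrocytes and astrocytes were not read as expression above, with fibroblasts as a reference, and for Tmem119.Immune cells this was not tested. The differences in oligodendrocytes and astrocytes are therefore not read as changes in expression. Those in OPC, fibroblasts and Tmem119.Immune cells were not called, and are not read so either. The difference between cell types was not tested.

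Barcodes that were left out by the quality control although they met its stated filter held nuclei with *Chat*, *Slc5a7* and *Prph* together. There were 13 among 3937 such barcodes, or 0.330% (exact interval 0.176 to 0.564%), against 53 of the 39461 kept nuclei, or 0.134% (0.101 to 0.176%). These barcodes carry no cluster in the comparisons above, and they were deeper, with a median of 5773 UMIs against 3327 in kept nuclei. The part of depth or of doublets in this was not tested.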

How the results depend on the processing

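Where members were tested, none was called in all neurons, in single cholinergic clusters or in other cell types under any alternative. In all neurons the 5 members were tested with filterByExpr and with no filter, and only *Ache* in the other fits. In most other cell types no member passed the 5% filter. In the summed cholinergic clusters 1 member, *Prph*, was called with no filter on genes and without AgRP-Gq;POMC-Gi replicate 1, so that leaving out single libraries gave 0 to 1. Genes called in all neurons, 0 by edgeR, were 12 by DESeq2, 1 with filterByExpr, 1 with no filter, and 3 to 2017 when single libraries were left out (3 and 17 without control replicates 1 and 2, 29 and 2017 without AgRP-Gq;POMC-Gi replicates 1 and 2). In the summed clusters the 15 calls became 7 by DESeq2, 33 without TMM factors, 88 with no filter, 5 with cluster 116 left out (chosen after seeing the data) and 14 to 136 without single libraries (26 and 14 without control replicates 1 and 2, 58 and 136 without AgRP-Gq;POMC-Gi replicates 1 and 2). In cluster 116 the 36 calls became 11 by DESeq2, 20 without TMM factors, 1 with filterByExpr, 103 with no filter, 101 with a replicate block and 28 to 145 without single libraries (46 and 145 without control replicates 1 and 2, 59 and 28 without AgRP-Gq;POMC-Gi replicates 1 and 2), and the alternatives for this cluster's count and for *Tbx20* were chosen after seeing the data.

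With a replicate block 168 genes were called in all neurons and 20 in the summed clusters. None was a member, of which only *Ache* was tested in all neurons and all but *Slc18a3* in the summed clusters. With clusters chosen at 5%, *Slc5a7* was called with the block (0.56, adjusted p = 0.0275) and with no filter (0.59, adjusted p = 0.0432). With the cluster of most nuclei left out, *Prph* was called with the block (0.93, adjusted p = 0.0267), with no filter (0.93, adjusted p = 0.0129) and without AgRP-Gq;POMC-Gi replicate 1 (1.05, adjusted p = 0.0446). The labels do not say what a replicate number stands for. Deviations of same-numbered libraries correlated at 0.18 in neurons, 0.01 in the summed clusters, 0.345 in oligodendrocytes and 0.243 in astrocytes, and choroid plexus nuclei were few in both libraries numbered 1 (2 and 6) and many in both numbered 2 (436 and 329). With 2 pairs these values do not settle whether the numbers pair the libraries. The block moved the calls from 0 to 227 in oligodendrocytes and from 53 to 426 in astrocytes. In fibroblasts, where the correlation was -0.147, the crossed pairing called 0 genes.

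The 8 cholinergic clusters were 14 at a threshold of 5%, 3 at 20%, 1 with *Slc18a3* required as well, 2 after thinning to 2000 UMIs and 7 to 9 without single libraries. At 5% their share of neurons differed between the groups, AgRP-Gq;POMC-Gi minus control, by 2.49 percentage points (exact permutation p = 0.667), against 0.265 at 10%. At 20% the difference was 0.784 percentage points, and as a share of all kept nuclei it was 0.596, both with no overlap between the groups and at the smallest p the design allows (0.3333). *Chat* in the summed clusters turned to -0.038 with clusters chosen at 5% and to -0.22 with those chosen at 20%. Leaving out single libraries, *Ache* in neurons ranged from -0.075 to 0.035, positive only when AgRP-Gq;POMC-Gi replicate 1 was dropped. In cluster 116 *Slc5a7* ranged from -0.059 to 0.45, negative only when control replicate 2 was dropped. There *Slc18a3* ranged from -0.57 to 0.98, the latter when control replicate 2 was dropped, and was 0.031 when AgRP-Gq;POMC-Gi replicate 2 was dropped. The causes were not tested. Of 121 values for 12 log2 differences, 110 kept their direction and side of the threshold and 6 turned. Of the rest, 2 passed the threshold newly and 3 (*Tbx20* in cluster 116) no longer passed it. *Tbx20* by DESeq2, which had no adjusted p, is not among the 121. *Slc18a3* and *Ache* in cluster 116 by DESeq2, also without an adjusted p, were counted as kept.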
